A study of Danio rerio with 12 samples.

Results

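The effect of repeated heat peaks on the transcriptome of zebrafish embryos was measured as an average over both media of the experiment, by setting 6 heated pools against 6 unheated pools. These are all 12 libraries of the series, divided by the temperature protocol in their labels, and the medium was held as a factor in the model. The heated pools were 3 of TS (thermal stress in fresh medium) and 3 of TS+SM (thermal stress in medium holding the stress metabolites of embryos that had been heated the day before). The unheated pools were 3 of C (fresh medium at a constant 27°C) and 3 of SM (the stress medium at the same constant 27°C). In the heated protocol the temperature cycled in steps of 15 min between 27°C and a peak of 32°C, with 19 cycles in 24 h. For each library 20 whole embryos, wild type of the AB line, were pooled, and all embryos were kept 1 per tube in darkness for the 24 h of exposure and frozen at 1 dpf. No label says whether the pools of a treatment came from separate clutches, so *P* values measure the spread between pools, each of which averages 20 embryos.

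Zebrafish embryos at this age are finishing the formation of somites, the blocks of mesoderm that are cut off one after the other from the presomitic mesoderm behind them. A molecular oscillator of Hairy-related repressors and Notch signalling, called the segmentation clock, runs in that tissue, and genes such as *mespab* and *ripply2* act where the next boundary forms. At the same time fast muscle fibres build sarcomeres and calcium stores, lens fibre cells fill with crystallins, pigment cells begin to make melanin, and neurons extend axons. Heat is known to activate heat shock factor, which raises the transcription of chaperones that refold or hold damaged proteins. The rate of fish development also rises with temperature. The paper staged embryos under its heat protocol as older than controls after the same time of exposure. It states that heat stress and heat-accelerated development are not yet separated as causes, and calls for stage-matched controls. The pools here share the time of exposure, not a known stage, so the part of stage in any change below was not tested. In pooled whole embryos a change in the number of cells of a type and a change in RNA per cell cannot be told apart.

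Libraries held 19280188 to 60239167 counts on genes in heated pools (median 25911952) and 18764434 to 26430586 in unheated pools (median 24659757.5), the largest belonging to TS+SM replicate 1. Reads that aligned to several places and were left out of the counts made up 4.51% to 8.28% in heated pools and 4.77% to 10.4% in unheated pools, so genes with near-identical paralogs, among them the gamma crystallins, the *hsp70* genes and the *ggact* genes, carry an uncertainty that was not tested. In a principal component analysis of log2 CPM the first axis (49.7% of the variance) and the second (13.3%) did not separate the pools by heat. On the third axis, with 9.75% of the variance, the 6 heated pools scored from -30.4 to -8.37 and the 6 unheated pools from 15.5 to 34.6. Values below are normalized counts, which are counts divided by TMM-scaled library sizes and brought to the mean library, and they compare pools for 1 gene, not genes of different length.

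Heat changed 213 of the 18688 genes tested at a *P*-adj of 0.05 or less in edgeR's quasi-likelihood test with Benjamini-Hochberg adjustment. Of these, 178 genes (0.952%) were higher and 35 genes (0.187%) lower in heated pools. The median LFC (log2 fold change, heated over unheated) was 0.99 for the genes that rose and -1.23 for those that fell, against -0.0021 over all genes tested. An LFC of 1 or more was reached by 87 of the genes that rose, and -1 or less by 21 of those that fell. The 6 heated pools lay wholly above or wholly below the 6 unheated pools for 190 of the 213 genes, 160 of them higher and 30 lower, while over all genes tested this held for 275 genes above (1.47%) and 104 below (0.557%), or 2.03% in either direction. The count of genes that rose depended on single libraries. It was 106 without TS replicate 1, 111 without TS replicate 2, 113 without TS+SM replicate 1, 111 without TS+SM replicate 2, 87 without C replicate 2 and 94 without SM replicate 1. For genes that fell it was 23, 21, 18 and 23 without TS replicate 1, TS replicate 2, TS+SM replicate 2 and TS+SM replicate 3, and 19, 19, 22 and 21 without C replicate 1, C replicate 2, SM replicate 1 and SM replicate 2. Leaving out each library in turn, 99 genes kept their call in all 12 fits, 82 of them higher and 17 lower.

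Read by function, 105 of the 213 genes belonged to 81 lists of genes by tissue or process that together hold 1946 of the genes tested. The other 108 were in no list. The lists with the most genes that rose were lens crystallins (17), glycolysis (12), the fast muscle sarcomere (10), muscle calcium handling (8) and muscle energy metabolism (7), and some genes are in more than 1 of them. Smaller numbers lay in lists of cytosolic chaperones, fin fold and cartilage matrix, melanophores and neurons. The lists with several genes that fell were the segmentation clock, the tailbud and, with the *ggact* paralogs, glutathione metabolism. The plot of LFC by list shows these together with lists in which no gene was called. Counts by list are calls of edgeR, given beside the 0.952% of all genes tested that rose and the 0.187% that fell. The lists and their members were chosen with earlier results of these data known. A share above that of all genes therefore follows in part from the choice, and it is not a test of the list. The filter on low counts can also let in a gene through the pools of 1 temperature. DESeq2 called 404 genes higher and 117 lower in all, and its count is given beside a list where the difference is large.

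**Figure D1:**
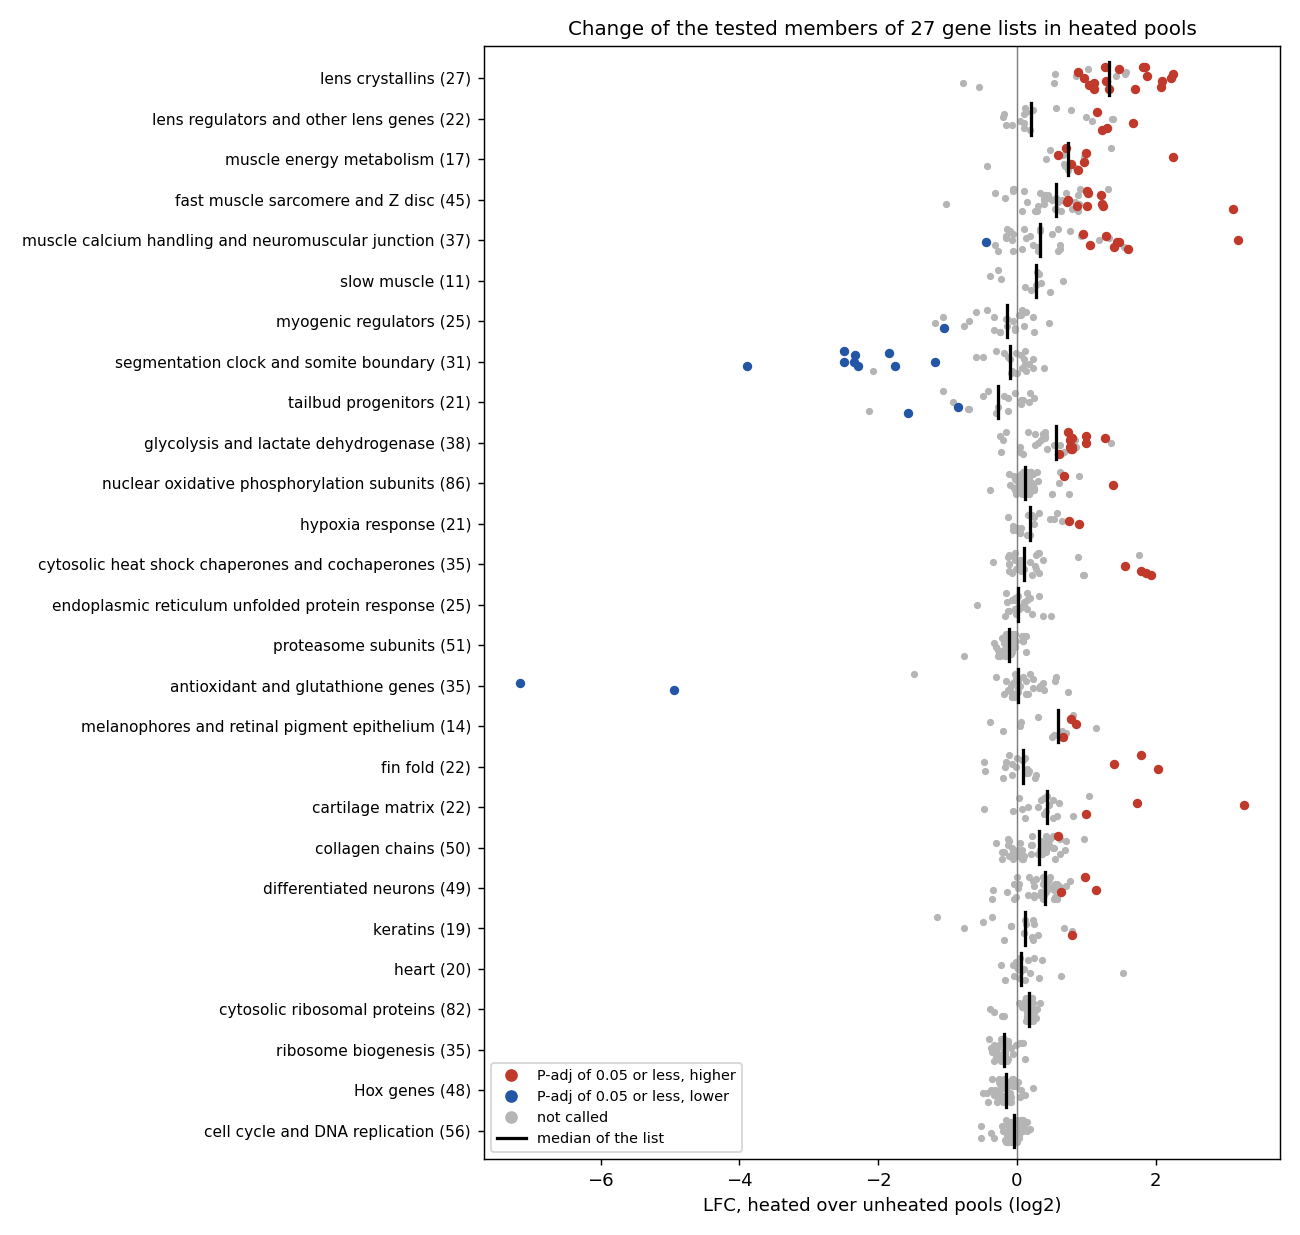
LFC (log2, heated over unheated, horizontal axis) of the tested members of 27 gene lists, 1 point per gene and the number tested in brackets. Red and blue points are genes called higher and lower at a P-adj of 0.05 or less, grey points were not called, and the black bar is the median of the list, which was 1.34 for lens crystallins and -0.19 for ribosome biogenesis.

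The crystallins, the soluble proteins that fill the lens and give it its refractive index, held the largest share of called genes of the 81 lists. Of 58 crystallin genes matched, 27 passed the filter on low counts, and 17 of these rose (63%, against 0.952% of all genes tested), none fell, and their median LFC was 1.34. For 19 of the 27 the heated pools lay wholly above the unheated pools, against 1.47% of all genes. The filter asks for enough counts in only as many libraries as 1 treatment has. A crystallin with few reads in unheated pools could therefore be among the 27 through its heated pools, so both shares depend in part on the filter. *crygm2d13*, a gamma M crystallin, had 84.0 to 119 normalized counts (median 101) in heated pools and 14.6 to 29.8 (median 20.8) in unheated pools. Its LFC was 2.26 ± 0.18 (SE, n = 6 pools each) with a *P*-adj of 6.86e-05, and the 6 heated pools lay above the unheated ones without overlap.

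Further gamma M crystallins rose too. The LFC was 2.23 ± 0.39 for *crygm2d7* (*P*-adj = 0.0127), 2.09 ± 0.31 for *crygm2d10* (0.00535) and 2.08 ± 0.36 for *crygm2d21* (0.0118). All of these had fewer than 25 normalized counts in every unheated pool, so small numbers of reads stand behind their baselines. The beta crystallins named here had more reads and lower LFCs, a difference that was not tested. *cryba1b* had 1396 to 2046 normalized counts (median 1723) in heated pools and 593 to 1071 (median 749) in unheated pools, an LFC of 1.11 ± 0.11 (*P*-adj = 0.000378). *crybb1l2* had 1249 to 2004 normalized counts (median 1393) in heated pools and 433 to 894 (median 578) in unheated pools, an LFC of 1.27 ± 0.18 (*P*-adj = 0.00422). Neither gene had a heated pool at or below an unheated one. Of the 10 crystallins without a call, 8 had an LFC above 0, among them *crygm2d18*, with 13.3 to 25.4 normalized counts in heated pools and 0.932 to 13.2 in unheated pools (*P*-adj = 0.0523 in edgeR). It was called with a replicate block in that fit (*P*-adj = 0.0402) and in DESeq2 (0.00419). Summed over the 27 genes, the crystallins had 9210 to 12326 normalized counts in heated pools and 3539 to 6328 in unheated pools.

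**Figure D2:**
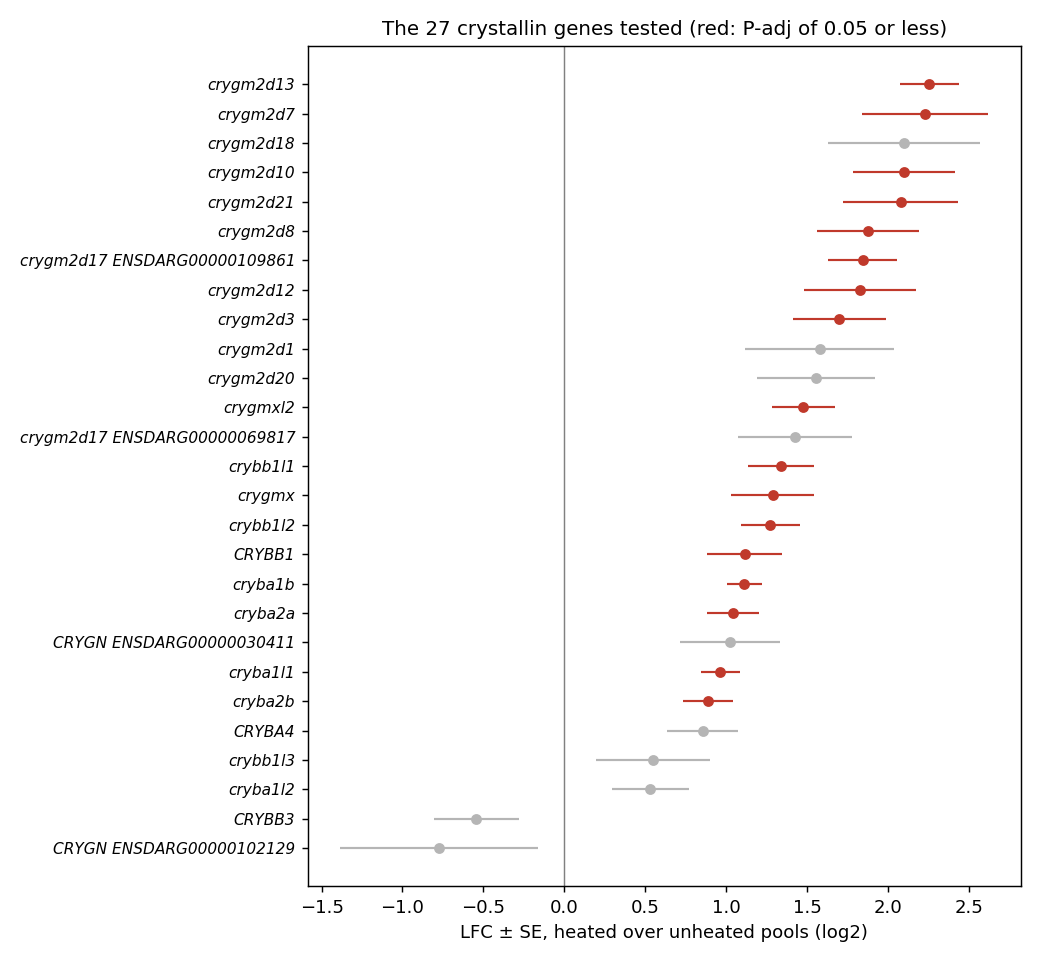
LFC ± SE (log2, heated over unheated, horizontal axis) of the 27 crystallin genes tested, ordered by LFC, with the 17 called genes in red and the 10 others in grey. The highest value is 2.26 for crygm2d13 and the lowest is -0.77, for a CRYGN gene that was not called.

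Other genes of lens fibres rose in smaller number, while regulators of the early lens were not called. Of 22 tested, 4 rose (18.2%, against 0.952% of all genes) and none fell, with a median LFC of 0.21. DESeq2 and the replicate block in edgeR each called 7. *mipa* and *mipb*, the aquaporin 0 water channels of lens fibre membranes, had LFCs of 1.31 ± 0.15 (*P*-adj = 0.000795) and 1.68 ± 0.26 (0.00593). *mipa* had 544 to 699 normalized counts (median 584) in heated pools and 149 to 327 (median 252) in unheated pools, with no overlap. The other called genes were *lim2.3* (LFC 1.15 ± 0.23, *P*-adj = 0.034), a lens membrane protein, and *capn3b* (1.22 ± 0.25, 0.033), a calpain protease of the muscle list. The lens list names its paralog *capn3a*, and *capn3b* was counted there only because it matched by the human gene symbol. These 2 calls depended on single libraries, since *lim2.3* kept its call in 4 and *capn3b* in 3 of the 12 fits that each left out 1 library, with *P*-adj values up to 0.0988 and 0.197 over the alternatives. The transcription factor *foxe3*, which acts in the lens epithelium, had 75.2 to 94.8 normalized counts (median 83.1) in heated pools and 65.2 to 117 (median 98.5) in unheated pools, an LFC of -0.15 ± 0.17 (*P*-adj = 0.917). None of the 30 retinal genes tested was called (1 in DESeq2), and their median LFC was 0.10.

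Fast muscle was the second tissue with many genes that rose. Of 45 tested genes of the fast sarcomere and Z disc, 10 rose (22.2%, against 0.952% of all genes) and none fell. The median LFC was 0.57, and 39 had an LFC above 0, against 49.6% of all genes tested. Without single libraries the number that rose was 4 to 7, and DESeq2 called 20. *myhz2*, a fast myosin heavy chain, had 8474 to 12799 normalized counts (median 10756) in heated pools and 3554 to 6622 (median 5726) in unheated pools. Its LFC was 1.01 ± 0.17 (*P*-adj = 0.0123) and the groups did not overlap.

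Genes of the Z disc and of membrane folds rose alongside. The myozenins *myoz1a* and *myoz1b*, which tether calcineurin at the Z disc, had LFCs of 1.24 ± 0.19 (*P*-adj = 0.00535) and 1.01 ± 0.15 (0.00529). *cavin4a*, a caveolar coat protein of muscle, had 808 to 1552 normalized counts (median 1079) in heated pools and 363 to 579 (median 493) in unheated pools, an LFC of 1.21 ± 0.17 (0.00361). *tcap*, the titin cap protein, had 69.7 to 161 normalized counts (median 98.7) in heated pools and 18.2 to 27.9 (median 23.5) in unheated pools, an LFC of 2.15 ± 0.23 (0.000585). None of these 4 genes overlapped between heated and unheated pools. A gene that the name table calls *XIRP2* (ENSDARG00000091090), an actin-binding protein of muscle attachments, had an LFC of 3.11 ± 0.59 (*P*-adj = 0.0235), and its reads ranged from 28.4 to 114 normalized counts in heated pools, against 0 to 12.2 in unheated pools. Its call was lost without C replicate 2, SM replicate 2 or SM replicate 3, with *P*-adj up to 0.067. It could be among the genes tested through its heated pools, so the share of the list depends in part on the filter. Another fast myosin, *myhz1.1*, had an LFC of 0.84 ± 0.23 without a call in edgeR (*P*-adj = 0.135), while DESeq2 called it (*P*-adj = 0.015).

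Some calcium handling genes of muscle rose as well. Of 37 genes tested, 8 rose and 1 fell (24.3% together, against 1.14% of all genes), with a median LFC of 0.34. *atp2a1l*, a calcium pump of the SERCA family that loads the sarcoplasmic reticulum, had 156, 142 and 197 normalized counts in TS and 159, 123 and 252 in TS+SM, against 22.3, 11.7 and 12.1 in C and 15.5, 22.6 and 29.8 in SM. Its LFC was 3.18 ± 0.26 (*P*-adj = 6.86e-05), so that every heated pool was several times above every unheated one. The related pump gene *atp2a1* had 41543 to 80802 normalized counts (median 57181) in heated pools and 30293 to 55547 (median 35281) in unheated pools, an LFC of 0.62 ± 0.17 that was not called in edgeR (*P*-adj = 0.124) and was called in DESeq2 (*P*-adj = 0.00794).

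Parvalbumins, calcium buffers that speed the relaxation of fast fibres, were among them. *pvalb1* had 10361 to 18274 normalized counts (median 13188) in heated pools and 3453 to 5922 (median 4650) in unheated pools, an LFC of 1.60 ± 0.16 (*P*-adj = 0.000438). *pvalb3* and *pvalb4* had LFCs of 1.47 ± 0.24 (0.00807) and 1.29 ± 0.17 (0.0027). None of the 3 overlapped between the groups. *casq1a*, calsequestrin, which holds calcium inside the store, had an LFC of 1.44 ± 0.18 (0.00149), and *jph2*, a junctophilin that joins the store to the surface membrane, 1.05 ± 0.15 (0.00392). The gene that fell was *chrng*, chosen after its values were seen, the gamma subunit of the embryonic acetylcholine receptor of muscle, at -0.45 ± 0.09 (0.0241), and its heated and unheated pools overlapped. No gene of this list was called lower without TS replicate 1, TS replicate 2, TS+SM replicate 1, TS+SM replicate 2, C replicate 1, C replicate 2 or SM replicate 2.

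Some genes that supply muscle with ATP rose too, in a list that is not restricted to fast muscle. Of 17 tested, 7 rose (41.2%, against 0.952% of all genes) and none fell, and without single libraries 4 to 7 were called. The median LFC was 0.74, and 16 of 17 were above 0, against 49.6% of all genes tested. *slc25a4*, the ADP/ATP carrier of the inner mitochondrial membrane, had 604 to 1291 normalized counts (median 792) in heated pools and 109 to 264 (median 174) in unheated pools. Its LFC was 2.25 ± 0.24 (*P*-adj = 0.00059), with no overlap. *ak1*, adenylate kinase, had an LFC of 0.87 ± 0.12 (0.00418), *ckmt2b*, a mitochondrial creatine kinase, 0.97 ± 0.18 (0.0187), and a *PYGM* gene (ENSDARG00000013317), muscle glycogen phosphorylase, 0.59 ± 0.10 (0.0109). The cytosolic creatine kinase *ckma* stayed just outside the threshold in edgeR at 0.85 ± 0.19 (*P*-adj = 0.0507), but was called with a replicate block (*P*-adj = 0.0385) and in DESeq2 (0.000665). Myoglobin, *mb*, had 0.42 ± 0.15 (0.287). The call of *ckmt2b* was lost without C replicate 2 or SM replicate 1 (*P*-adj up to 0.0617).

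No gene was called among 11 of slow muscle (median LFC 0.27), 20 of the heart (0.06) or 7 of smooth muscle (0.28) in edgeR, where DESeq2 called 1, 1 and 2. The slow myosin *smyhc1* had 10965 to 19890 normalized counts (median 14409) in heated pools and 11446 to 15704 (median 13004) in unheated pools, an LFC of 0.21 ± 0.15 (*P*-adj = 0.799). The difference between fast and slow muscle lists was not tested. Of 6 chaperones and quality control genes of myosin, a *SMYD1* gene (ENSDARG00000009280), a methyltransferase needed for thick filament assembly, rose with an LFC of 0.68 ± 0.13 (*P*-adj = 0.0302), and it kept its call in 5 of the 12 fits that left out 1 library (*P*-adj up to 0.0945). The myosin chaperone *hsp90aa1.1* had 4636 to 14055 normalized counts (median 6683) in heated pools and 4118 to 10902 (median 8339) in unheated pools, an LFC of -0.11 ± 0.23 (*P*-adj = 0.978).

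**Figure D3:**
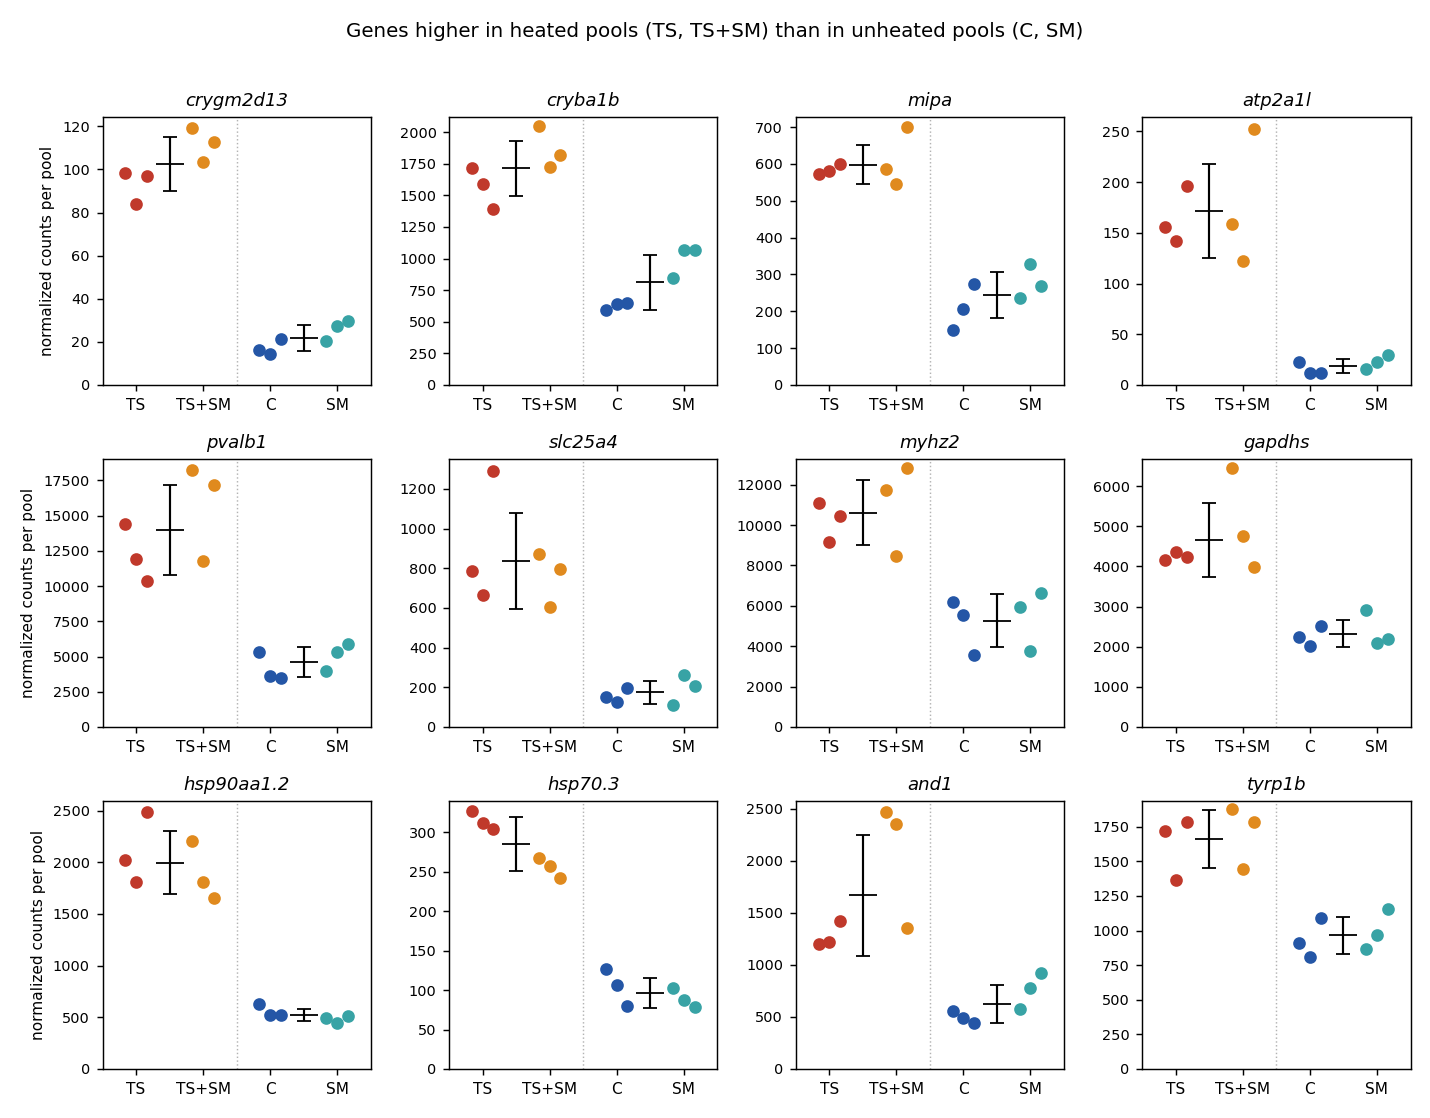
Normalized counts per pool (vertical axis, from 0) of 12 genes called higher, in TS, TS+SM, C and SM pools, 3 points each, with black bars for mean ± SD of the 6 heated pools (left) and the 6 unheated pools (right). In every panel the 6 heated pools lie above the 6 unheated pools, for slc25a4 at 604 to 1291 against 109 to 264. For the largest rises among them this follows from the naming rule.

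Glycolysis, which splits glucose to pyruvate, and lactate dehydrogenase made up the largest metabolic group. Of 38 genes tested, 12 rose (31.6%, against 0.952% of all genes) and none fell. The median LFC was 0.56, and 34 were above 0, against 49.6% of all genes tested. *gapdhs*, a glyceraldehyde phosphate dehydrogenase, had 3986 to 6448 normalized counts (median 4292) in heated pools and 2011 to 2904 (median 2221) in unheated pools, an LFC of 1.00 ± 0.13 (*P*-adj = 0.0025). *ldha*, which turns pyruvate into lactate, had 4503 to 6793 normalized counts (median 5597) in heated pools and 2705 to 3696 (median 3105) in unheated pools, an LFC of 0.79 ± 0.12 (0.00495). The groups did not overlap for either gene.

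Further enzymes of glycolysis rose as well. The LFC was 0.80 ± 0.12 for *gpia*, glucose phosphate isomerase (*P*-adj = 0.00593), 0.76 ± 0.12 for *pgk1*, phosphoglycerate kinase (0.00764), and 0.80 ± 0.12 and 1.00 ± 0.14 for the enolases *eno1a* (0.00535) and *eno3* (0.00307). *PGAM2*, the muscle phosphoglycerate mutase, had an LFC of 0.78 ± 0.16 (0.0302) and kept its call in 7 of the 12 fits that left out 1 library, with a *P*-adj of up to 0.38 over the alternatives. Summed over the list, glycolysis genes had 107749 to 162690 normalized counts in heated pools and 80036 to 102482 in unheated pools. The number that rose was 7 to 13 without single libraries.

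The mitochondrial steps that follow glycolysis held 2 calls. No gene of the 29 of the tricarboxylic acid cycle was called (median LFC 0.15, with 1 called in DESeq2 and 1 under a replicate block), nor any of the 13 encoded by the mitochondrial genome (0.03). Of 86 nuclear subunits of oxidative phosphorylation, 2 rose (2.33%, against 0.952% of all genes), with a median of 0.12. These were *cox4i1l*, a cytochrome c oxidase subunit, with an LFC of 1.39 ± 0.21 (*P*-adj = 0.00513), and *ndufa4b*, another subunit of that complex, with 0.67 ± 0.14 (0.0358). *ndufa4b* kept its call in 4 of the 12 fits that left out 1 library. Of 50 mitochondrial carriers, *slc25a4* and *slc25a55b* (0.77 ± 0.17, 0.0448) rose (4%, against 0.952% of all genes). The call of *slc25a55b* held in only 2 of those 12 fits, and the median of the list was -0.01. In purine metabolism 2 of 25 genes rose (8%, against 0.952% of all genes), *ak1* and *nme2b.2*, a nucleoside diphosphate kinase, at 0.99 ± 0.14 (0.00307).

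Genes of the segmentation clock and of somite boundaries were the main group that fell. Of 31 tested, 9 fell (29%, against 0.187% of all genes) and none rose, yet the median LFC was -0.09, since the other 22 lay close to 0 for the most part. For 10 of them the heated pools lay wholly below the unheated ones, against 0.557% of all genes. As with the crystallins, a gene with few reads in heated pools, such as *mespba*, could be among the 31 through its unheated pools. Both shares therefore depend in part on the filter. *mespab*, a bHLH factor that marks the anterior side of the forming somite, had 2.84, 5.42 and 1.37 normalized counts in TS and 4.19, 1.29 and 1.21 in TS+SM. In C it had 64.9, 30.1 and 20.5, and in SM 55.9, 42.9 and 39.7. The LFC was -3.89 ± 0.44 (*P*-adj = 0.000795), and no heated pool reached the lowest unheated pool.

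The clock repressors *her1* and *her7* fell by similar amounts. *her1* had 13.1 to 29.1 normalized counts (median 18.3) in heated pools and 69.9 to 127 (median 95.4) in unheated pools, an LFC of -2.35 ± 0.26 (*P*-adj = 0.000781). *her7* had 2.42 to 10.8 normalized counts (median 7.66) in heated pools and 25.0 to 50.7 (median 33.3) in unheated pools, an LFC of -2.33 ± 0.34 (0.00506). No heated pool reached the lowest unheated pool for either gene. The T-box factor *tbx6*, which switches on *mesp* and *ripply* genes in presomitic mesoderm, had 48.8 to 109.7 normalized counts (median 88.0) in heated pools and 222 to 386 (median 287) in unheated pools, an LFC of -1.84 ± 0.21 (0.000795). Its partners at the boundary fell as well, with LFCs of -2.48 ± 0.38 for *ripply2* (0.00593), -2.49 ± 0.44 for *mespbb* (0.0134) and -1.75 ± 0.25 for the protocadherin *pcdh8* (0.00418).

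Some calls in this group were less secure. *mespbb*, at up to 34.2 normalized counts, lost its call when the libraries were thinned to the smallest (*P*-adj = 0.206). *ripply1*, a repressor that ends the activity of Tbx6, had an LFC of -1.18 ± 0.22 (0.0228) and lost its call without TS+SM replicate 2, TS+SM replicate 3, C replicate 1 or C replicate 2 (*P*-adj up to 0.0688). *mespba* had 0 to 4.74 normalized counts (median 2.53) in heated pools and 9.72 to 24.8 (median 11.2) in unheated pools, an LFC of -2.29 ± 0.49 (0.0445), and kept its call in 1 of the 12 fits that left out 1 library.

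Other members of the oscillator were not called. In whole embryos their reads need not come from the presomitic mesoderm, so their values do not show the state of the clock there. The Notch ligand *dlc*, which is itself cyclic, had 983 to 2860 normalized counts (median 2050) in heated pools and 1537 to 3530 (median 1679) in unheated pools, an LFC of -0.08 ± 0.26 (*P*-adj = 0.984). The Hairy-related gene *her15.1* had 492 to 1013 normalized counts (median 642) in heated pools and 539 to 802 (median 576) in unheated pools, an LFC of 0.17 ± 0.16 (0.885). Both genes overlapped between the groups. The range of the list's LFCs was -3.89 to 0.39.

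**Figure D4:**
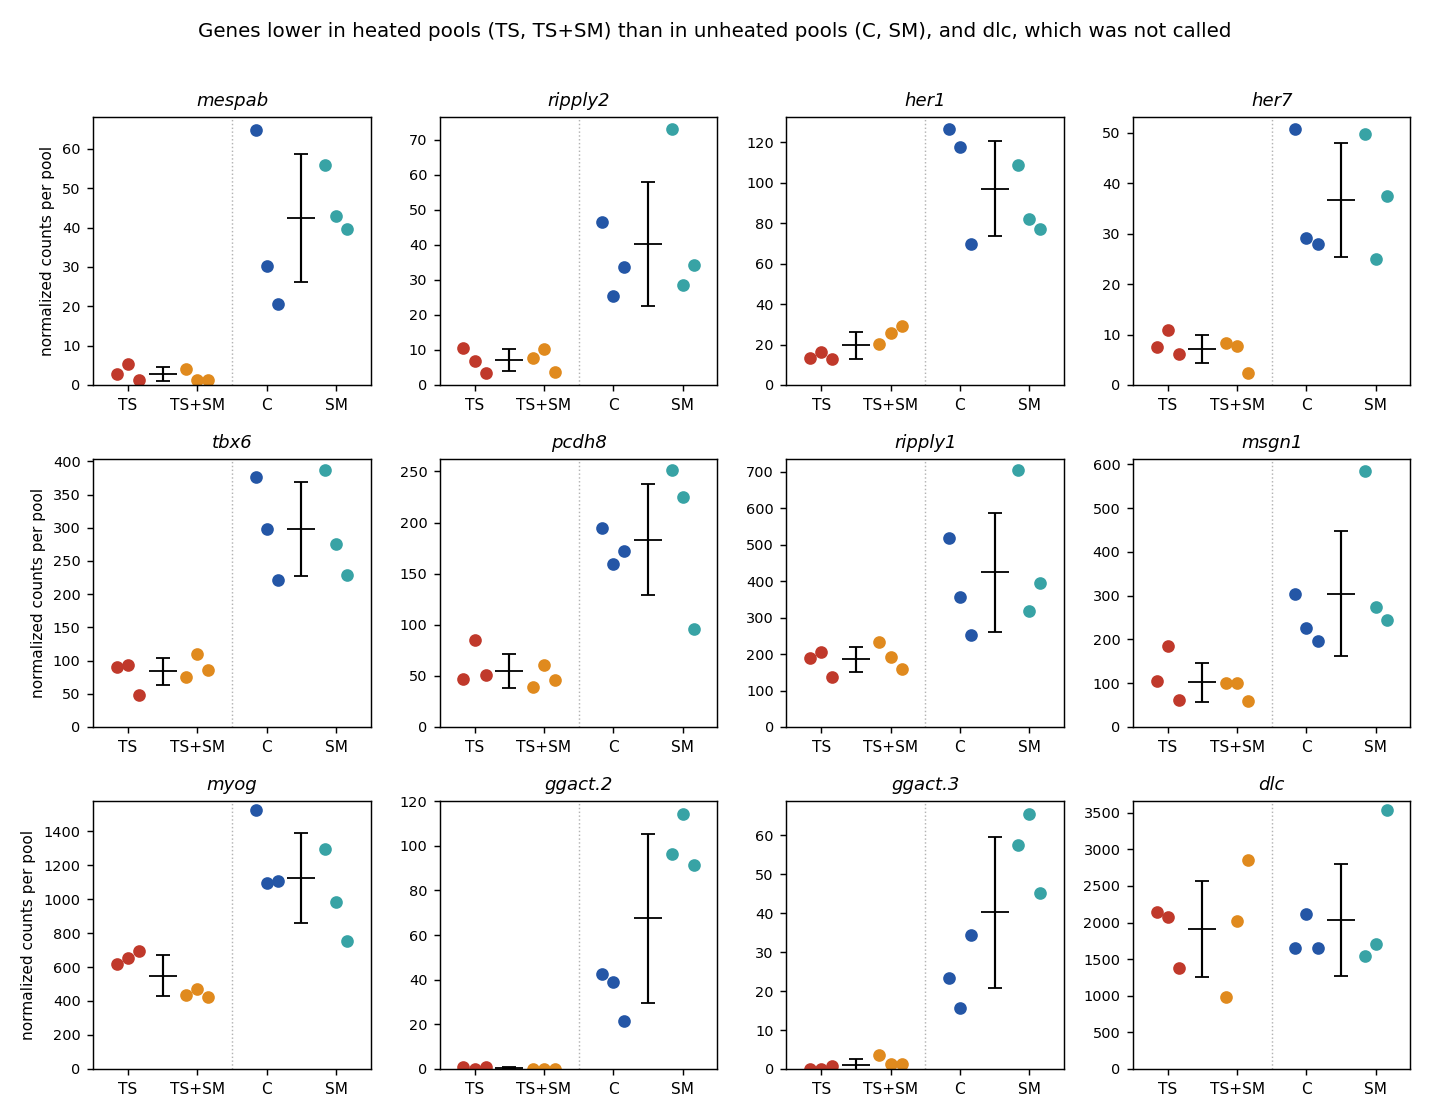
Normalized counts per pool (vertical axis, from 0) of 11 genes called lower and of dlc, which was not called, in TS, TS+SM, C and SM pools, 3 points each, with black bars for mean ± SD of the 6 heated pools (left) and the 6 unheated pools (right). For the 11 called genes no heated pool reaches the lowest unheated pool, for myog at 421 to 694 against 751 to 1521. For dlc the pools overlap. For all of the 11 but myog the separation follows from the naming rule.

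Behind the segmenting tissue, 2 of 21 tailbud genes fell (9.52%, against 0.187% of all genes) and the median LFC was -0.27. *msgn1*, mesogenin, which drives tailbud cells toward presomitic mesoderm, had 59.4 to 184 normalized counts (median 101) in heated pools and 197 to 585 (median 259) in unheated pools, an LFC of -1.57 ± 0.32 (*P*-adj = 0.0369). *tbx16l*, a T-box factor of the same cells, had 90.3 to 137 normalized counts (median 107) in heated pools and 146 to 284 (median 185) in unheated pools, an LFC of -0.84 ± 0.17 (0.0358). The pools did not overlap for either gene, but *msgn1* kept its call in 2 and *tbx16l* in 3 of the 12 fits that left out 1 library (*P*-adj up to 0.107 and 0.104), and without single libraries 0 to 2 tailbud genes were called. DESeq2 called 5 tailbud genes lower and edgeR with a replicate block 4. *tbxta*, the zebrafish brachyury gene of tailbud and notochord, had 627 to 868 normalized counts (median 831) in heated pools and 459 to 906 (median 813) in unheated pools, an LFC of 0.06 ± 0.16 (0.981). None of the 48 Hox genes was called, with a median LFC of -0.16 and 5 of 48 above 0.

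Of 25 regulators of muscle formation, *myog* alone was called in edgeR, while DESeq2 called 6 lower. *myog*, myogenin, which drives muscle precursors into terminal differentiation, had 621, 654 and 694 normalized counts in TS and 438, 468 and 421 in TS+SM, against 1521, 1097 and 1107 in C and 1293, 979.6 and 751 in SM. Its LFC was -1.05 ± 0.14 (*P*-adj = 0.00247) without overlap. In the unstranded counts, which add reads of the opposite strand, *myog* was not called (*P*-adj = 0.105). The list had a median of -0.15, and 1 to 3 of its genes were called lower without single libraries.

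Heat shock genes were changed in a few members. Of 35 cytosolic chaperones and cochaperones, 4 rose (11.4%, against 0.952% of all genes) and none fell, and the median LFC was 0.10. *hsp90aa1.2*, an inducible Hsp90, had the smallest *P* value of all genes tested. It had 2018, 1805 and 2490 normalized counts in TS and 2208, 1809 and 1656 in TS+SM, against 630.3, 523 and 519 in C and 492, 449 and 516 in SM. The LFC was 1.94 ± 0.11 (*P*-adj = 4.2e-06), and the lowest heated pool lay far above the highest unheated one.

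The other 3 genes came from the Hsp70 and small heat shock families. *hsp70.3*, an inducible Hsp70, had 242 to 327 normalized counts (median 286) in heated pools and 78.3 to 127 (median 94.7) in unheated pools, an LFC of 1.56 ± 0.13 (*P*-adj = 6.86e-05). *hspa8b*, an Hsp70 relative, had 63.0 to 85.3 normalized counts (median 75.3) in heated pools and 9.31 to 28.7 (median 23.9) in unheated pools, an LFC of 1.79 ± 0.26 (0.00418). *hspb9*, a small heat shock protein that keeps unfolded proteins soluble, had 498 to 1226 normalized counts (median 687) in heated pools and 118 to 294 (median 219) in unheated pools, an LFC of 1.86 ± 0.24 (0.0025). None of them overlapped between the groups, and all 4 heat shock calls held under each alternative. *hsp70l* lay wholly above in heated pools, at 29.8 to 54.0 normalized counts (median 35.1) in heated pools and 9.52 to 27.4 (median 20.2) in unheated pools, but was not called in edgeR (LFC 0.95 ± 0.26, *P*-adj = 0.132), while DESeq2 called it (*P*-adj = 0.0347).

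Most of the chaperone system was not called. The constitutive *hspa8* had an LFC of 0.28 ± 0.19 (*P*-adj = 0.758) and the heat shock factor *hsf1* -0.34 ± 0.37 (0.914). No gene was called among 25 of the unfolded protein response of the endoplasmic reticulum (median 0.02), where the chaperone *hspa5* had 0.15 ± 0.12 (0.821), nor among 8 chaperonin CCT subunits (0.10) or 51 proteasome subunits (-0.11, 6 of them above 0). Of 47 DnaJ genes *DNAJC2* fell, with an LFC of -0.42 ± 0.09 (*P*-adj = 0.0491) and no call in any of the 12 fits that left out 1 library. DESeq2 called 2 DnaJ genes lower and 1 gene of the unfolded protein response higher. Among 12 genes of a list of cold-inducible and temperature-responsive RNA-binding proteins, which also holds *hsf1*, none was called, with a median of -0.20.

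The steepest falls were those of 2 tandem paralogs of gamma-glutamylamine cyclotransferase, an enzyme that releases amino acids from gamma-glutamyl links. *ggact.2* had 0.947, 0 and 0.687 normalized counts in TS and 0 in each TS+SM pool, which are single reads. In C it had 42.6, 38.9 and 21.4, and in SM 96.2, 114 and 91.5. All 6 heated pools held 3 counts or fewer, and against 3 counts in each of them *ggact.2* was at least 22.2-fold lower in heated pools than in unheated pools (*P*-adj = 6.86e-05).

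*ggact.3* had 0, 0 and 0.687 normalized counts in TS and 3.59, 1.29 and 1.21 in TS+SM, against 23.3, 15.6 and 34.5 in C and 57.4, 65.5 and 45.2 in SM. The fitted LFC was -4.94 ± 0.47 (*P*-adj = 0.000298) and rests on at most 6 counts in a heated library, so its size depends on the prior count of the fit. For both genes no heated pool came near an unheated one, and within the unheated pools SM lay above C. A further copy, *GGACT*, had 1.79 to 10.3 normalized counts (median 3.36) in heated pools and 5.07 to 21.4 (median 10.4) in unheated pools, an LFC of -1.48 ± 0.49 that was not called (*P*-adj = 0.237). The other 32 antioxidant and glutathione genes tested had no call, DESeq2 called 2 genes of the list higher, and the median over the 35 was 0.01.

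Skeletal and fin matrix genes rose in small numbers. The actinodins *and1*, *and2* and *and3*, which build the actinotrichia fibres of the fin fold, were the 3 called of 22 fin fold genes. These are 13.6% of the list, against 0.952% of all genes, and the median LFC of the list was 0.09. *and1* had 1203 to 2473 normalized counts (median 1387) in heated pools and 443 to 923 (median 569) in unheated pools, an LFC of 1.40 ± 0.16 (*P*-adj = 0.000781). *and2* and *and3* had LFCs of 1.79 ± 0.18 (0.000438) and 2.04 ± 0.22 (0.000741). All 3 were wholly higher in heated pools. Other genes of the fin fold, such as its Fraser complex and Dlx members, made up the 19 without a call.

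In cartilage matrix 3 of 22 genes rose (13.6%, against 0.952% of all genes), the median LFC was 0.43 and 20 were above 0, while DESeq2 called 7 higher. *matn3a*, matrilin 3, a linker of cartilage collagen, had the highest LFC of the genes named here, at 3.28 ± 0.43 (*P*-adj = 0.0025). It had 36.0, 50.1 and 39.2 normalized counts in TS and 18.0, 46.4 and 101 in TS+SM, against 6.08, 4.86 and 1.86 in C and 4.66, 7.14 and 4.41 in SM. The groups were apart, on baselines of a few reads. With so few reads in unheated pools, *matn3a* was among the 22 through its heated pools. The share of the list therefore depends in part on the filter. *chad*, chondroadherin, a leucine-rich matrix protein that binds collagen, had 188 to 299 normalized counts (median 235) in heated pools and 43.8 to 103 (median 67.2) in unheated pools, an LFC of 1.73 ± 0.20 (0.000798). A second matrilin 3, *MATN3*, had 0.99 ± 0.20 (0.0324) and kept its call in 4 of the 12 fits that left out 1 library (*P*-adj up to 0.095).

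Notochord genes were otherwise without a call, since the 2 called of 24 were the same matrilins (median 0.22), and DESeq2 called 4 higher. The notochord list names *matn3b*, and *matn3a* was counted there only because it matched by the human gene symbol. Of 50 collagen chains *COL6A2* alone rose (2%, against 0.952% of all genes), with an LFC of 0.60 ± 0.12 (0.0365). It kept its call in 2 of those 12 fits, and the median of the list was 0.32. DESeq2 called 6 collagen chains higher and edgeR with a replicate block 3. None of 19 collagen processing enzymes was called in the edgeR fit of all 12 libraries without a block (median 0.11). DESeq2 called 1 of them higher, and without single libraries 0 to 1 were called. Summed over the collagens, heated pools had 180968 to 203932 normalized counts and unheated pools 123886 to 168364, without overlap. Such a sum follows the most abundant chains and was not tested. The sums of some other lists, among them crystallins, glycolysis and melanophores, did not overlap either.

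Some genes of pigment cells rose. Of 14 genes of melanophores and retinal pigment epithelium, 3 rose (21.4%, against 0.952% of all genes) and none fell. The median LFC was 0.59, and DESeq2 called 5 higher. *tyrp1b*, an enzyme of melanin synthesis, had 1362 to 1881 normalized counts (median 1749) in heated pools and 812 to 1158 (median 941) in unheated pools, an LFC of 0.78 ± 0.12 (*P*-adj = 0.00528). Its paralog *TYRP1* (ENSDARG00000029204) had 0.85 ± 0.13 (0.00535), and *pmela*, which forms the fibrils that melanin is laid on, 0.66 ± 0.12 (0.0149). None of the 3 overlapped, and the call of *pmela* was lost without C replicate 2 or SM replicate 1 (*P*-adj up to 0.0617). In the 15 genes of xanthophores and iridophores none was called (median 0.14), nor in the 20 of neural crest (0.06).

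In the nervous system few genes were called, and most had a positive LFC. Of 49 genes of differentiated neurons 3 rose (6.12%, against 0.952% of all genes). An LFC above 0 was seen in 43, against 49.6% of all genes tested, and the median was 0.41. *cckb*, a cholecystokinin neuropeptide, had 179 to 266 normalized counts (median 192) in heated pools and 75.8 to 104 (median 93.2) in unheated pools, an LFC of 1.14 ± 0.14 (*P*-adj = 0.00121). *nefma*, a neurofilament subunit of axons, had 195 to 282 normalized counts (median 212) in heated pools and 77.2 to 142 (median 114) in unheated pools, an LFC of 0.98 ± 0.16 (0.00807). Neither overlapped. *scg2b*, a granin of secretory vesicles, had 0.64 ± 0.12 (0.0235) and kept its call in 4 of the 12 fits that left out 1 library. DESeq2 called 12 of the 49 genes higher, edgeR with a replicate block 7, and 2 to 9 were called without single libraries.

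Single genes were called in lists of progenitors, glia and neuroendocrine cells. Of 28 neural progenitor and proneural genes, an *INSM1* gene (ENSDARG00000053301), a zinc finger factor of newborn neurons and endocrine cells, rose with 0.51 ± 0.10 (*P*-adj = 0.0299) in 3 of those 12 fits, and the median was 0.20. Of 13 glial genes an *SLC1A2* gene (ENSDARG00000102453), a glutamate transporter, rose with 0.59 ± 0.10 (0.0118). Of 12 neuroendocrine genes *cckb* was the only one called. DESeq2 called 2, 1 and 2 genes higher in these lists.

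Lists with 1 or 2 genes that rose covered further functions. *IGFBP1*, the only gene called of 10 in the insulin-like growth factor system, encodes a binding protein of these factors that low oxygen induces in fish. It had 713 to 909 normalized counts (median 829) in heated pools and 322 to 569 (median 458) in unheated pools, an LFC of 0.90 ± 0.15 (*P*-adj = 0.00855). An *ADM* gene (ENSDARG00000015263), the vasodilator peptide adrenomedullin, rose too (0.75 ± 0.16, 0.0358, called in 2 of the 12 fits that left out 1 library). With *IGFBP1* it made up the calls among 21 hypoxia genes (9.52%, against 0.952% of all genes), which had a median of 0.19. Of 66 translation factors *eef2l2*, a relative of elongation factor 2, was the only gene called (1.52%, against 0.952% of all genes). *eef2l2* had 1326 to 1543 normalized counts (median 1452) in heated pools and 596 to 828 (median 719) in unheated pools, an LFC of 1.00 ± 0.10 (0.000379). *npsn*, nephrosin, an astacin protease counted in the hatching gland list, had an LFC of 1.24 ± 0.20 (0.00807). The other 7 genes of that list were not called, and whether the reads of *npsn* came from the hatching gland was not tested. For *IGFBP1*, *eef2l2* and *npsn* the heated pools lay wholly above the unheated ones.

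Further single calls were 1 of 32 claudins of tight junctions, *cldn11a* (LFC 1.02 ± 0.17, *P*-adj = 0.0118), 1 of 31 genes of amino acid synthesis, *aldh18a1*, which starts the making of proline (0.57 ± 0.08, 0.00418), and 1 of 21 genes of the vacuolar proton pump, an *ATP6V0C* gene (ENSDARG00000036577) (0.49 ± 0.10, 0.0302). With 1 gene each, these are 3.12%, 3.23% and 4.76% of their lists, against 0.952% of all genes tested, and say little about the lists. Of 19 keratins *krt1-19e* rose with 0.80 ± 0.17 (0.0448), its pools overlapped, and *krt4*, a keratin of the outer skin layer, had 322141 to 716328 normalized counts (median 485327) in heated pools and 295767 to 615616 (median 449811) in unheated pools, an LFC of 0.13 ± 0.21 (0.962). Single libraries ended the calls of *ATP6V0C* (5 of 12 fits kept it) and *krt1-19e* (3 of 12). DESeq2 called 2 keratins higher and 2 lower.

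Other genes that fell did not share a list. Of 313 chemosensory receptors matched, 3 passed the filter on low counts, so the family as a whole was not assessed. Of these 3, *olfcb1*, an olfactory receptor of class C, was called lower (33.3%, against 0.187% of all genes). It had 9.57 to 28.4 normalized counts (median 17.7) in heated pools and 49.4 to 86.9 (median 57.4) in unheated pools. Its LFC was -1.74 ± 0.27 (*P*-adj = 0.00739). *SYCP3*, which builds the axis of chromosomes in meiosis, had -1.47 ± 0.26 (0.0127), and the zinc finger gene *znfl1k* -2.29 ± 0.34 (0.00495). *olfcb1*, *SYCP3* and *znfl1k* were among the largest falls, which the naming rule took only from genes without overlap. The 10 germ cell genes tested were not called (median -0.07). Of 15 cathepsins *ctsll*, a cathepsin L relative, fell with -1.23 ± 0.23 (0.0196) with overlapping pools, and lost its call without TS replicate 2, TS+SM replicate 2 or SM replicate 1 (*P*-adj up to 0.0613).

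Outside the 81 lists 108 genes were called, and the genes of this paragraph were chosen after their values were seen. Genes of muscle among them were *nrap* (LFC 0.83 ± 0.15), a chaperone of actin filaments, and *cav3* (0.62 ± 0.13), muscle caveolin. Genes of neurons and secretory vesicles were *chgb* (1.72 ± 0.36), chromogranin B, *neflb* (1.42 ± 0.19), a neurofilament subunit, *PENK* (0.73 ± 0.15), proenkephalin, and *sypb* (0.60 ± 0.12), synaptophysin. Of extracellular proteins a *THBS4* gene (ENSDARG00000102777, 1.05 ± 0.18), a thrombospondin of tendons and muscle attachments, and a *VTN* gene (ENSDARG00000055388, 1.19 ± 0.23), vitronectin, rose. *txnipa* (0.52 ± 0.09) and *txnipb* (0.82 ± 0.13), inhibitors of thioredoxin and of glucose uptake, and *TKT*, transketolase of the pentose phosphate pathway, rose too, *TKT* with 81.6 ± 23.3 normalized counts in heated pools and 38.1 ± 8.03 in unheated pools (mean ± SD, n = 6 each).

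Also outside the lists, the naming rule gave *tcap*, described with muscle, and *entpd3*, an ectonucleotidase (2.01 ± 0.33, *P*-adj = 0.00949), *igsf10*, an immunoglobulin domain protein (1.92 ± 0.31, 0.0077), *fgfbp2a*, of the family that binds fibroblast growth factors (2.12 ± 0.39, 0.0198), and a *CYB561A3* gene (ENSDARG00000028257), a cytochrome b561 relative (2.53 ± 0.47, 0.02). The call of *fgfbp2a* was lost without C replicate 2 or SM replicate 1 (*P*-adj up to 0.065) and *CYB561A3* kept its call in 4 of the 12 fits that left out 1 library. The uncharacterized gene *si:ch211-255p10.3* was among the 5 with the smallest *P* in its direction, with 183 to 282 normalized counts (median 239) in heated pools and 52.5 to 82.1 (median 69.8) in unheated pools, an LFC of 1.78 ± 0.17 (0.000378).

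Several processes of all cells were without a called gene, and in most of these lists the members leaned to 1 side. Of 82 cytosolic ribosomal proteins, 78 had an LFC above 0 with a median of 0.18, and of 35 ribosome biogenesis genes 3 had, with a median of -0.19. Of 17 aminoacyl tRNA synthetases 2 were above 0 (median -0.07) and of 52 splicing and RNA-binding genes 14 (-0.06), against 49.6% of all genes tested. The 56 genes of the cell cycle and DNA replication leaned less, with 24 above 0 and a median of -0.04. Genes of 1 complex are not independent of each other, and none of these genes passed the test in edgeR. DESeq2 called 2 ribosome biogenesis genes and 1 splicing gene lower.

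No gene was called in lists of epidermis without keratins (25 tested, median -0.10), skin ionocytes (22, 0.14), ear and lateral line (19, 0.08), endothelium (23, -0.09), pronephros (20, 0.09), globins (7, 0.36), other erythroid genes (20, 0.01), myeloid cells (11, 0.07) or yolk and liver proteins (24, 0.15). The same held for p53 and apoptosis (30, -0.05), the stress hormone axis (11, 0.07), the circadian clock (35, 0.12), immediate early genes (25, -0.04) and innate immunity (23, -0.001). It also held for ferritins (13, 0.14), cholesterol synthesis (22, -0.09), fatty acid oxidation (30, -0.02), annexins (15, 0.07), S100 proteins (12, 0.15) and glutathione S-transferases (14, -0.02). Targets of FGF (13, -0.01), Wnt (11, -0.07), BMP (14, -0.03), Hedgehog (10, 0.21) and retinoic acid (13, -0.04) were not called either. DESeq2 called 1 gene higher in each of the lists of endothelium, pronephros, myeloid cells, immediate early genes and innate immunity, and 1 lower in each of endothelium, erythroid genes, p53, immediate early genes and retinoic acid.

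The effect of heat was then set side by side for the media, from a model with an interaction term, in which the fold change of TS+SM over SM and that of TS over C share no library. All 213 genes called had the same sign in both media. Of the 178 that rose, 145 exceeded an LFC of 0.58 in each medium, and of the 35 that fell 24 were below -0.58 in each. *hsp90aa1.2* had an LFC of 1.96 in stress and 1.92 in fresh medium, *atp2a1l* 2.95 in stress and 3.42 in fresh medium, and *her1* -1.84 in stress and -2.88 in fresh medium. Since these genes were called on the average of both media, a shared sign follows in part from the choice.

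**Figure D5:**
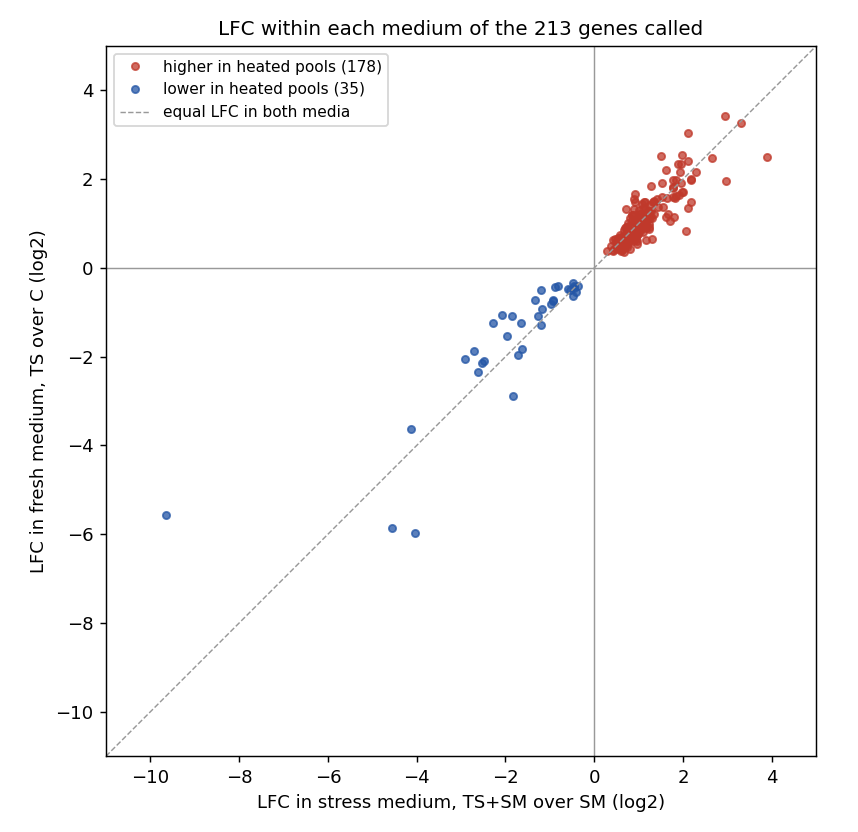
LFC (log2) of the 213 called genes in stress medium (TS+SM over SM, horizontal axis) and in fresh medium (TS over C, vertical axis), 1 point per gene, red for higher and blue for lower in heated pools, with a dashed line of equal values. All points lie in the quadrants of equal sign, and the leftmost point, ggact.2, has fitted values of -9.66 in stress and -5.56 in fresh medium that rest on heated pools with at most 1 count.

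The interaction itself gave 0 genes at a *P*-adj of 0.05 or less in edgeR, with 171 genes (0.915%) at an unadjusted *P* under 0.05. Without any interaction a share near 0.05 of all genes would fall there, so this test was conservative. Its 0 calls do not show that heat acted alike in both media. DESeq2 called 2 genes. The first of these was *si:ch211-214b16.2*, which the paper holds to be a likely ortholog of *NOD2* and reports as lower in SM than in C. It had 13.3, 58.2 and 59.8 normalized counts in TS and 30.5, 71.0 and 132 in TS+SM, against 104, 41.8 and 56.9 in C and 0 in each SM pool. The second, *best1*, a chloride channel known from the retinal pigment epithelium, had 50.2, 65.0 and 19.2 in TS and 6.58, 11.6 and 4.85 in TS+SM, against 7.09, 9.72 and 1.86 in C and 17.1, 86.9 and 32.0 in SM. Their unadjusted interaction *P* values in edgeR were 9.13e-05 and 0.000246. The next in edgeR's order was ENSDARG00000103837, which has no symbol, with LFCs of 0.60 in stress and -1.07 in fresh medium and a *P*-adj of 1 in the edgeR test.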

How the data were processed

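RNA of 12 pools of zebrafish embryos was sequenced from strand-specific mRNA libraries. The authors trimmed reads with fastp 0.23.1, aligned them to GRCz11 with STAR 2.6.1 and deposited STAR's read counts of 32520 genes, without normalization. The column of the library's strand (column 4) was used and 4 summary lines were dropped. Symbols came from the study's gene tables (220 genes) or from a name table (28984), which gives many zebrafish genes the capital-letter symbol of the human gene, so paralogs can share 1 symbol, and 3316 genes had none.

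Counts were tested in R 4.3.3 with edgeR 4.0.16 (TMM, filterByExpr by treatment, robust two-sided quasi-likelihood test, medium and temperature as terms, Benjamini-Hochberg over 18688 genes). The SE of an LFC is its size divided by the square root of F. The members and the 81 gene lists were chosen with earlier results of these data known, and lists were described, not tested. Named genes were the 15 largest rises and 15 largest falls among called genes without overlap between heated and unheated pools and with a symbol that is no clone name, the 5 smallest *P* values in each direction, up to 6 called members of each list, members that show a list without calls, and the 3 smallest interaction *P* values. Groups with 3 counts or fewer in every library were taken as at the limit of detection. Alternatives were DESeq2 1.42.0 without Cook's filter, its size factors, no filter, a replicate block, treatment as 1 factor, unstranded counts, thinning to 18764434 counts, and leaving out each library. Scripts were tested on simulated data. Intervals for single libraries are not given, and with 6 pools against 6 the smallest exact two-sided permutation *P* for 1 gene is 0.00216.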

Additional observations from a re-analysis of the deposited data

Results flagged for a closer look

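Among the 95 genes that the naming rule gives, each of the 6 heated and each of the 6 unheated pools was checked for 1 pool far from the other 5 of its temperature. This singled out 17 of 190 sets of 6 pools. About 1 in 20 would be singled out if values were normally distributed. The check used untransformed normalized counts of chosen genes, so that rate need not apply here. The causes were not tested.

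TS+SM replicate 1, the library with most counts, stood above the other heated pools for 5 genes. It had 3.59 normalized counts of *ggact.3* (others 0 to 1.29), 1708 of *cryba1l1* (others 1188 to 1343), 6448 of *gapdhs* (others 3986 to 4746), 512 of *cox4i1l* (others 204 to 303) and 357 of *ctsll* (others 164 to 202). SM replicate 1 stood above the other unheated pools for 4 genes, with 24.8 normalized counts of *mespba* (others 9.72 to 11.9), 86.9 of *olfcb1* (others 49.4 to 58.8), 585 of *msgn1* (others 197 to 303) and 2429 of *gpia* (others 1456 to 1785). For *mespba*, *olfcb1* and *msgn1*, which fell with heat, this pool lay farthest from the heated ones.

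In heated pools TS replicate 3 had 63.2 normalized counts of *fgfbp2a* (others 17.1 to 33.9), TS replicate 2 had 184 of *msgn1* (others 59.4 to 104), TS+SM replicate 2 had 227 of *capn3b* (others 338 to 380) and TS+SM replicate 3 had 699 of *mipa* (others 544 to 599). In unheated pools SM replicate 3 had 7.72 normalized counts of *CYB561A3* (others 0.932 to 2.03) and 268 of *SYCP3* (others 96.4 to 137), C replicate 3 had 1069 of *INSM1* (others 711 to 800.3), and SM replicate 2 had 86.9 of *best1* (others 1.86 to 32.0).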

How the results depend on the processing

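Against 178 genes higher and 35 lower in edgeR, DESeq2 gave 404 and 117, with 212 of the 213 calls among them. No alternative moved the median LFC of all genes by as much as 0.1. DESeq2 called 2 genes for the interaction, where edgeR called 0 in every fit that had this term. The replicate numbers are not known to mark a shared batch. Same-numbered TS and C pools deviated together (r = 0.614, 0.294 and 0.786). For TS and C pools of unlike number r was 0.578, 0.262, -0.328, -0.658, -0.674 and -0.703. Same-numbered TS+SM and SM pools did not deviate together in all pairs (0.498, 0.0239 and 0.0789). Same-numbered C and SM pools had r of 0.322, -0.212 and -0.304, and TS and TS+SM pools 0.478, 0.0608 and 0.556. A replicate block in the edgeR fit gave calls of 238 genes higher and 67 lower and 0 for the interaction. Of single genes named in the report and not called, it gave calls to *ckma* and *crygm2d18*. Leaving out 1 library gave 87 to 207 genes higher, 18 to 39 lower and 0 to 0 for the interaction, so both counts depend on single pools. The remaining alternatives gave 131 to 194 genes higher and 28 to 33 lower, within 1.5 times. In the 19 alternatives 96 of the 213 genes were called each time, 81 higher and 15 lower. The direction of a called gene changed once, for 1 gene without a name here in unstranded counts. Depth limits genes of a few reads, such as the gamma crystallins in unheated pools and *ggact* genes in heated pools.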
